A study of Bos taurus with 6 samples.

Results

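The genes that move calcium in and out of the sarcoplasmic reticulum were examined by RNA-Seq in longissimus dorsi muscle from 3 animals each of the Shandong black (B) and the Luxi (L) breed. The animals were 18 months old, with no treatment named, and gave 1 library each, numbered as replicate or animal 1 to 3 of the breed. The 10 genes were chosen by name, from knowledge of the pathway, but with earlier results of these data known. They are the calcium pumps ATP2A1 and ATP2A2, the pump inhibitors SLN and PLN, the release channel RYR1, its voltage sensor CACNA1S, the junction protein JPH1, the calcium stores CASQ1 and CASQ2 and the calcium buffer PVALB. All 10 were found among the 17258 genes listed. Luxi is a local yellow cattle breed and one of the parents of Shandong black cattle, whose other parents are the Japanese black and Bohai black breeds. The animals of the breeds came from different suppliers, so breed and supplier cannot be told apart.

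In a muscle fibre, an electrical signal on the surface membrane enters through the T-tubules, where the voltage sensor opens the ryanodine receptor of the neighbouring sarcoplasmic reticulum. Calcium that calsequestrin holds inside the reticulum then flows to the contractile proteins, and the SERCA pumps return it. Fast fibres rely on ATP2A1 and CASQ1, whereas slow fibres, like the heart, use ATP2A2, its inhibitor PLN and more CASQ2. These forms are therefore commonly read beside fibre type markers.

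Expression was given as FPKM, the fragments of a transcript per kilobase of its length, scaled to the fragments of the library, summed over the transcripts of a gene. FPKM is per length, so levels can be compared between genes. The 9765 genes whose mean FPKM reached 1 in either breed were tested with limma on log2(FPKM + 1). Fold changes are Luxi over Shandong black cattle, and the added 1 shrinks those of low genes. A gene was called when its Benjamini-Hochberg adjusted p was under 0.05 and its log2 fold change was 1 or more in size. These p-values measure the spread among these 6 animals. The mean FPKM of PVALB stayed under 1 in both breeds, so 9 of the 10 genes were tested. The libraries rest on 14.1 to 14.6 gigabases of aligned sequence in Shandong black cattle and at least 17.5 in Luxi cattle, and over all genes tested the log2 fold change had a median of 0.13. With median-of-ratios size factors that median was 0.02, and each of the 9 genes kept its direction.

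The Luxi cattle replicate 1 stood apart from the other Luxi animals. Its summed FPKM over 6 skeletal muscle genes (CKM, ACTA1, MB, TTN, NEB and DES) was 23353, against 62401 and 70535 in the other Luxi animals and 45628 to 54360 in Shandong black cattle. This sum was carried by ACTA1, with an FPKM of 12237 in this animal and 32188 to 54910 in the other 5 animals. CKM and DES were lowest in this animal as well, whereas NEB (590) was highest in it, MB (7894) was above all Shandong black animals and TTN (625) lay within their range. Its summed FPKM over PECAM1 and CDH5, markers of endothelium, was 43.8, against 16.3 and 25.1 in the other Luxi animals and 11.0 to 12.0 in Shandong black cattle. In whole muscle, fewer cells of a type and less RNA per cell cannot be told apart. Results are given with and without this animal where they rest on it.

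None of the 9 genes tested was called between the breeds by limma after Benjamini-Hochberg adjustment, where 2.55% of all genes tested were called. At an unadjusted limma p under 0.05, 3 of the 9 genes differed (ATP2A1, CASQ2 and SLN), against 21.9% of all genes. These 3 were also the genes in which the animals of the breeds did not overlap, as in 29.1% of all genes, and the exact permutation test gave them p = 0.1, the smallest that 3 animals against 3 allow. Not all genes pointed the same way: ATP2A1, CASQ1, CACNA1S, RYR1, JPH1 and SLN had higher mean levels in Luxi cattle, and ATP2A2, PLN and CASQ2 had lower mean log2 levels. The median log2 fold change of the 9 genes was 0.48, and in 5 of them the log2 fold change was 1 or more in size, against 7.99% of all genes. Without the Luxi cattle replicate 1, limma called 4 of the 9 genes (ATP2A1, CASQ1, CACNA1S and SLN, each higher in Luxi cattle), where 6.09% of all genes were called and 4.80% called higher.

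**Figure D1:**
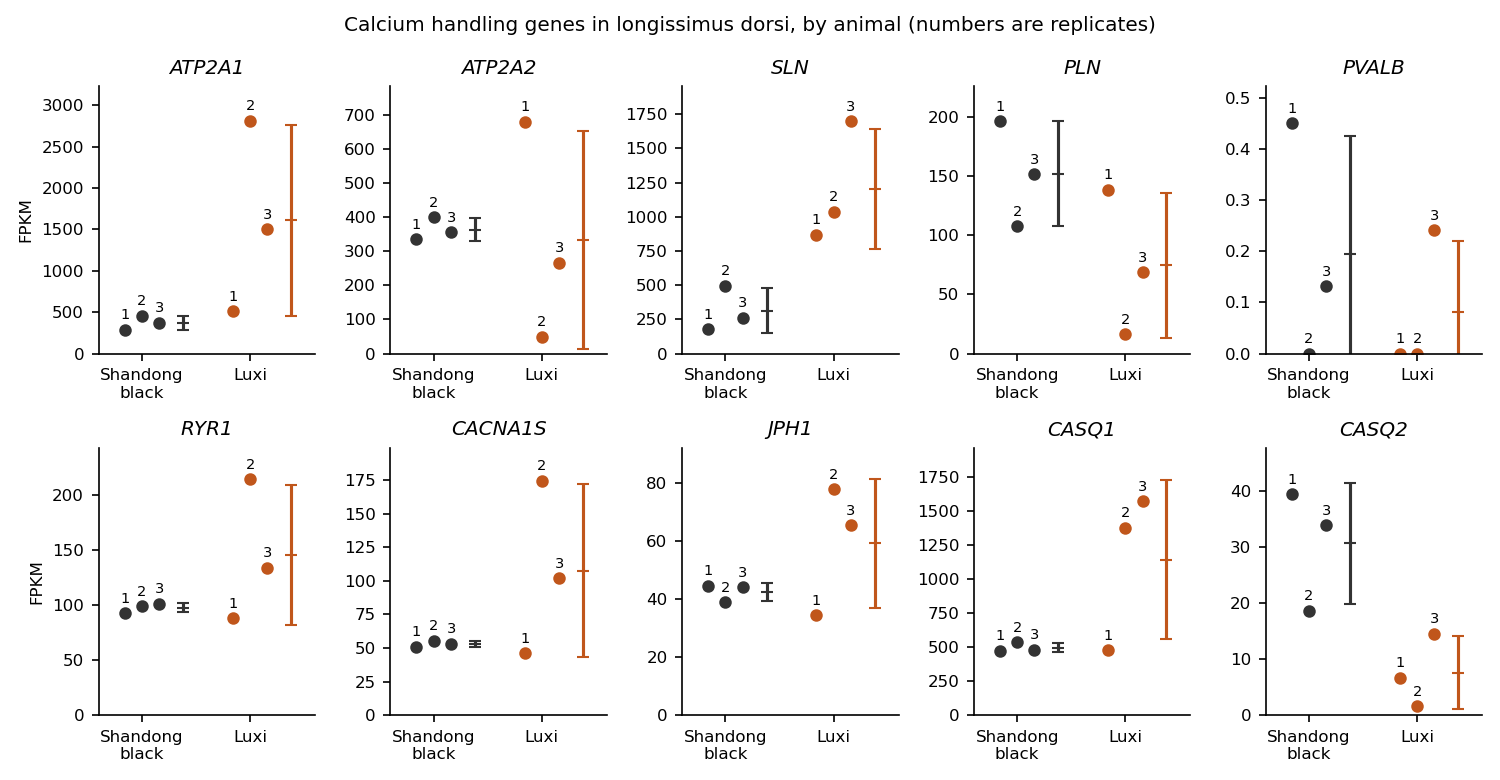
FPKM of the 10 calcium handling genes (vertical axes, linear, from 0) in each animal. Points are animals with their replicate number, and the bar beside each breed is the mean with its SD (n = 3), cut off at 0 where it would fall below. In ATP2A1, CASQ1, CACNA1S, RYR1 and JPH1 the Luxi cattle replicates 2 and 3 lie above each Shandong black animal and replicate 1 lies close to them.

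ATP2A1 encodes SERCA1, the calcium pump of fast fibres, and lies on the minus strand of chromosome 25 (25929251 to 25946618 in ARS-UCD1.2, the build of all coordinates here). Its FPKM was 289, 455 and 371 in Shandong black animals 1 to 3 and 510, 2813 and 1502 in Luxi animals 1 to 3. The breeds did not overlap, but Luxi animal 1 lay close to the Shandong black animals and Luxi animal 2 was 5.52 times as high as Luxi animal 1. The mean of the Luxi animals, 1608 ± 1155 (SD, n = 3), was 4.33 times that of the Shandong black animals, 372 ± 83.0 (SD, n = 3). With a log2 fold change of 1.82 (standard error 0.63), ATP2A1 was not called (limma adjusted p = 0.154). Without the Luxi cattle replicate 1 it was 2.49 (standard error 0.37) and passed (limma adjusted p = 0.0220). Without the Luxi cattle replicate 2 it was 1.26 and did not pass (limma adjusted p = 0.267).

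ATP2A2 encodes SERCA2, the pump of slow fibres and heart, and lies on the plus strand of chromosome 17 from 54210738 to 54268644. Its FPKM was 335, 401 and 356 in Shandong black animals and 681, 49.6 and 267 in Luxi animals 1 to 3. The Shandong black animals lay within a narrow range, whereas the Luxi animals lay on both sides of it, and replicate 1 was 13.7 times as high as replicate 2. The breed means of 364 ± 33.5 (SD, n = 3) for Shandong black and 332 ± 321 (SD, n = 3) for Luxi differed by less than the spread of the Luxi animals. Its log2 fold change was -0.79 with a standard error of 0.85 (limma adjusted p = 0.616). The sign rested on Luxi animal 2, without which the value was 0.23 (limma adjusted p = 0.810).

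Summed over both pumps, the muscle had an FPKM of 624, 856 and 727 in Shandong black animals and 1190.5, 2863 and 1769 in Luxi animals 1 to 3, so each Luxi animal had more pump transcript than each Shandong black animal. ATP2A1 made up 46.3, 53.1 and 51.0% of this sum in Shandong black animals. In the Luxi cattle it made up 42.8% in replicate 1, 98.3% in replicate 2 and 84.9% in replicate 3. The sum was set up after the values had been seen and was not tested.

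SLN encodes sarcolipin, a very short membrane protein that slows the SERCA pumps, and lies on the minus strand of chromosome 15 from 17267311 to 17271854. Its FPKM was 178, 497 and 263 in Shandong black animals and 869, 1036 and 1701 in Luxi animals. The lowest Luxi animal was well above the highest Shandong black animal. In contrast to CASQ1, RYR1, CACNA1S and JPH1, the Luxi cattle replicate 1 was above all Shandong black animals as well, and SLN was the only gene of the 9 tested whose log2 values varied less between Luxi animals (SD 0.50, n = 3) than between Shandong black animals (SD 0.75, n = 3). SLN was not called, with a log2 fold change of 2.01 and a standard error of 0.49 (limma adjusted p = 0.0786). Leaving out 1 animal at a time gave values from 1.67 to 2.41, and SLN was called without the Luxi cattle replicate 1 (limma adjusted p = 0.0475).

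PLN encodes phospholamban, the inhibitor that restrains SERCA2 in heart and slow muscle until it is phosphorylated, and lies on the minus strand of chromosome 9 from 32399938 to 32413620. Its FPKM was 196, 107 and 152 in Shandong black animals and 138, 16.3 and 68.7 in Luxi animals. Replicate 1 of the Luxi cattle lay within the range of the Shandong black animals and the other Luxi animals below it. PLN was not called, with a log2 fold change of -1.43 and a standard error of 0.71 (limma adjusted p = 0.290), and the value rested on single Luxi animals. It was -2.09 without the Luxi cattle replicate 1 (limma adjusted p = 0.0802) and -0.59 without the Luxi cattle replicate 2 (limma adjusted p = 0.483).

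**Figure D2:**
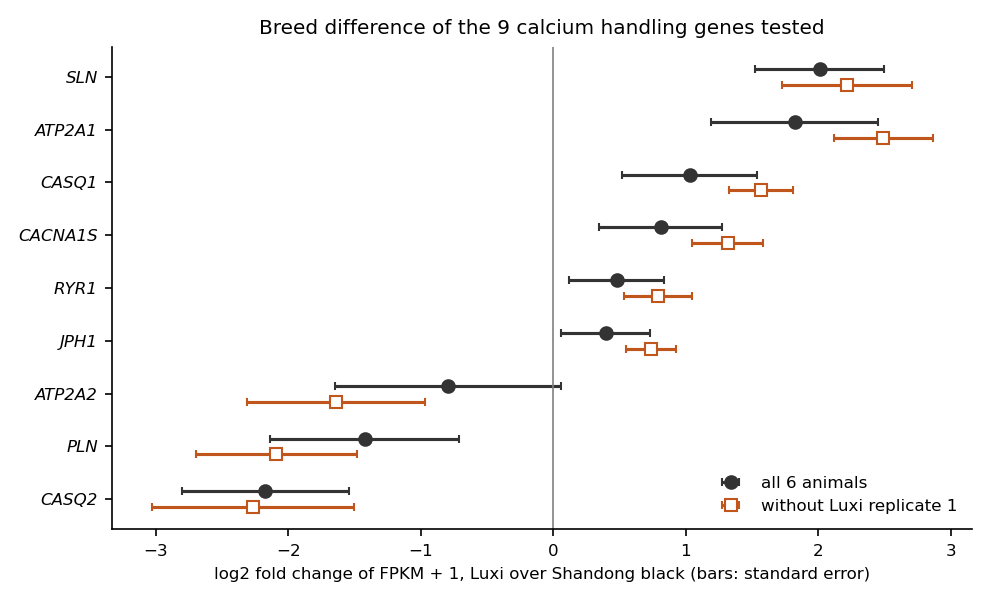
Log2 fold change of FPKM + 1 between the breeds (horizontal axis, Luxi over Shandong black, bars are the standard error) for the 9 genes tested, with all 6 animals (filled circles) and without the Luxi cattle replicate 1 (open squares). Leaving out that animal moved all 9 values away from 0, for example from 1.82 to 2.49 in ATP2A1 and from -0.79 to -1.64 in ATP2A2.

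RYR1 encodes the calcium release channel of the sarcoplasmic reticulum and lies on the plus strand of chromosome 18 from 48236668 to 48365358. Its FPKM was 92.6, 98.9 and 101 in Shandong black animals and 88.0, 214 and 134 in Luxi animals 1 to 3. The Shandong black animals were nearly alike, the Luxi cattle replicate 1 lay just below them and the other Luxi animals above. RYR1 was not called, at 0.48 on the log2 scale with a standard error of 0.36 (limma adjusted p = 0.465). The value was 0.79 without the Luxi cattle replicate 1 (limma adjusted p = 0.104) and 0.15 without the Luxi cattle replicate 2 (limma adjusted p = 0.806). Between 24.5 and 87.0% of the FPKM of RYR1 in an animal was on reference transcripts, the rest on assembled transcripts over the same exons. On reference transcripts alone the log2 fold change was 0.97 and was not called (limma adjusted p = 0.181).

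CACNA1S encodes the voltage sensor that opens RYR1, and lies on the minus strand of chromosome 16 from 79601782 to 79658546. Its FPKM was 50.8, 55.4 and 53.2 in Shandong black animals and 46.0, 175 and 102 in Luxi animals. JPH1, on the minus strand of chromosome 14 from 37502881 to 37595438, encodes junctophilin 1, which holds the T-tubule beside the reticulum, and had an FPKM of 44.5, 38.9 and 44.1 in Shandong black animals and 34.5, 77.8 and 65.4 in Luxi animals. Both genes had the order of animals seen for RYR1: the Luxi cattle replicate 1 below all Shandong black animals, and the Luxi cattle replicates 3 and 2 above them, in that order. The log2 fold changes were 0.81 for CACNA1S (standard error 0.46, limma adjusted p = 0.347) and 0.39 for JPH1 (standard error 0.33, limma adjusted p = 0.517). Without the Luxi cattle replicate 1, CACNA1S was called at 1.31 (limma adjusted p = 0.0415), whereas JPH1 was not, at 0.74 (limma adjusted p = 0.0613). Leaving out the Luxi cattle replicate 2 instead lowered the values to 0.36 for CACNA1S and 0.16 for JPH1, and neither gene was called (limma adjusted p of 0.624 and 0.814). Between 26.1 and 100% of the FPKM of JPH1 in an animal was on reference transcripts. On these alone its log2 fold change was 0.096 (limma adjusted p = 0.932).

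CASQ1 encodes calsequestrin 1, the main calcium store of fast fibres, and lies on the minus strand of chromosome 3 from 9474930 to 9484581. Its FPKM was 472, 536 and 478 in Shandong black animals and 476, 1375 and 1568 in Luxi animals. The Luxi cattle replicate 1 lay within the range of the Shandong black animals, and the other Luxi animals were 2.89 and 3.29 times as high as replicate 1. CASQ1 was not called, with a log2 fold change of 1.03 and a standard error of 0.51 (limma adjusted p = 0.288). Without the Luxi cattle replicate 1 it was called at 1.57 (limma adjusted p = 0.0230). Without the Luxi cattle replicate 2 or 3 it was lower, at 0.80 and 0.71, and was not called (limma adjusted p of 0.455 and 0.500).

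CASQ2 encodes calsequestrin 2, the form of the heart and slow fibres, and lies on the same chromosome, on the plus strand from 27540618 to 27611174. Its FPKM was 39.3, 18.6 and 33.8 in Shandong black animals and 6.62, 1.54 and 14.5 in Luxi animals. Each Luxi animal, replicate 1 included, was below each Shandong black animal, and the Shandong black mean of 30.6 ± 10.7 (SD, n = 3) was 4.06 times the Luxi mean of 7.54 ± 6.50 (SD, n = 3). Its log2 fold change of -2.17, with a standard error of 0.63, had the largest size among the 9 genes, and CASQ2 was not called (limma adjusted p = 0.109). Leaving out 1 animal at a time gave values from -2.78 to -1.48, and CASQ2 was called in none of these 6 fits.

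PVALB encodes parvalbumin, a soluble calcium buffer that speeds the relaxation of fast fibres in small mammals, and lies on the minus strand of chromosome 5 from 75176518 to 75193657. Its FPKM was 0.450 and 0.131 in Shandong black animals 1 and 3 and 0.241 in Luxi animal 3, and it was listed at 0 in the other animals. These values are far below those of the other genes of the group in both breeds, also in Luxi animals 2 and 3, in which ATP2A1 and CASQ1 were highest. No fold change is given at this level.

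In Shandong black cattle the order of mean FPKM was CASQ1 (495), ATP2A1 (372), ATP2A2 (364), SLN (313), PLN (152), RYR1 (97.5), CACNA1S (53.1), JPH1 (42.5) and CASQ2 (30.6), followed by PVALB. From ATP2A1 through ATP2A2 and SLN to PLN, each gene lay below the one before it by less than the larger SD of the pair. In Luxi cattle the order was ATP2A1 (1608), SLN (1202), CASQ1 (1139.9), ATP2A2 (332), RYR1 (145), CACNA1S (108), PLN (74.5), JPH1 (59.2) and CASQ2 (7.54), followed by PVALB. By the same measure ATP2A1, SLN and CASQ1 were not separated, nor were the neighbours from ATP2A2 to JPH1. The log2 values of 8 of the 9 genes tested varied more between the Luxi animals than between the Shandong black animals, with a median SD of 0.96 against 0.13, where the medians over all genes tested were 0.31 and 0.19.

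The ratio of 2 genes within an animal depends little on the scaling of the library, and 4 such ratios were compared on the log2 scale with a pseudocount of 1. The log2 ratio of CASQ1 to CASQ2 was 3.55, 4.78 and 3.78 in Shandong black animals and 5.97, 9.08 and 6.67 in Luxi animals, so that each Luxi animal had relatively more of the fast form. The log2 ratio of SLN to PLN was -0.14, 2.20 and 0.79 in Shandong black animals and 2.64, 5.91 and 4.61 in Luxi animals. The log2 ratio of ATP2A1 to RYR1 was 1.63, 2.19 and 1.86 in Shandong black animals and 2.52, 3.71 and 3.48 in Luxi animals, so the pump transcript of fast fibres was higher relative to the release channel in each Luxi animal, replicate 1 included. In these 3 ratios the breeds did not overlap, with differences of the means of 3.20, 3.44 and 1.34 (exact two-sided permutation test, p = 0.1 each, 0.133 after Benjamini-Hochberg adjustment over the 4 ratios, where 0.1 is the smallest p possible). With reference transcripts only, the ratio of ATP2A1 to RYR1 differed by 0.76 and the breeds overlapped (exact two-sided permutation test, p = 0.6). The log2 ratio of ATP2A1 to ATP2A2 was -0.21, 0.18 and 0.06 in Shandong black animals and -0.42, 5.80 and 2.49 in Luxi animals, where replicate 1 lay below all Shandong black animals and the others far above them (exact two-sided permutation test, p = 0.4, and 0.4 after adjustment).

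**Figure D3:**
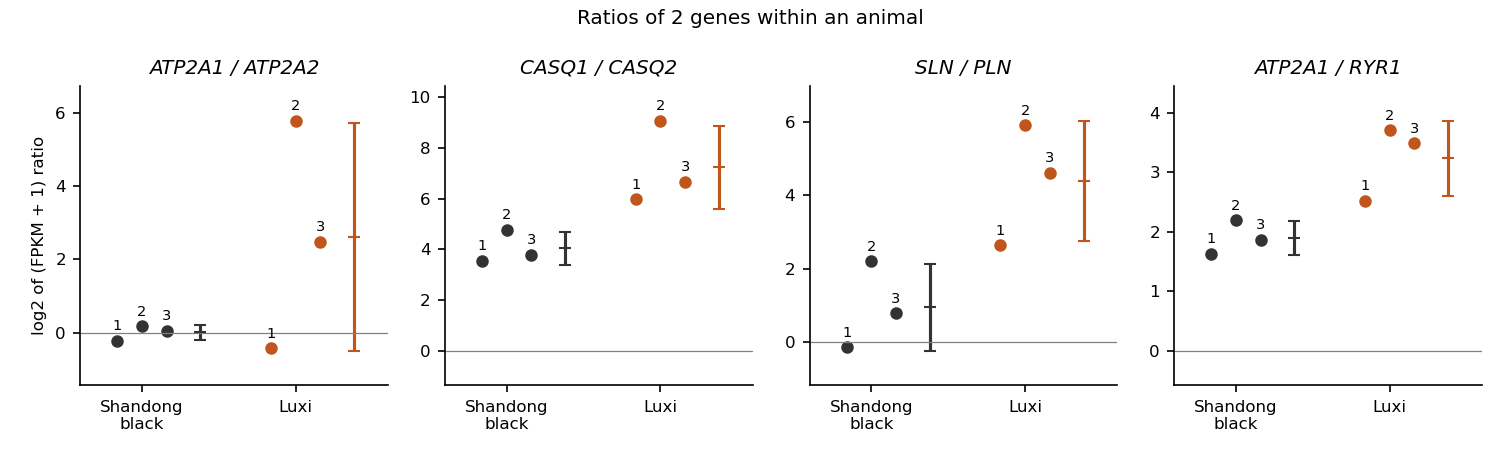
Log2 ratio of the FPKM + 1 of 2 genes within each animal (vertical axes). Points are animals with their replicate number and bars are the mean with its SD (n = 3). The breeds do not overlap in CASQ1 to CASQ2, SLN to PLN and ATP2A1 to RYR1, whereas ATP2A1 to ATP2A2 is near 0 in the Shandong black animals and in Luxi animal 1 and is 5.80 and 2.49 in the other Luxi animals.

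Markers of fast and slow fibres were read beside these genes. The summed FPKM over 8 fast fibre markers was 2892 to 5183 in Shandong black cattle and 4071, 27879 and 26848 in Luxi animals 1 to 3, and 2 of the 8 (TNNI2 and TNNT3) were higher in each Luxi animal than in each Shandong black animal, against 20.0% of all genes. The summed FPKM over 7 slow fibre markers was 26145 to 32443 in Shandong black cattle and 12274, 3378 and 13582 in Luxi animals, and 4 of the 7 (MYL2, TNNC1, TNNI1 and TNNT1) were lower in each Luxi animal, against 9.10% of all genes. TNNI1, the slow troponin I, was the only marker of these 15 that was called, against 2.55% of all genes (log2 fold change -2.32, limma adjusted p = 0.0467). This call was lost without any 1 of the Shandong black animals and without Luxi animal 2. MYL3, a slow light chain, went the other way, with an FPKM of 1180, 63.5 and 244 in Luxi animals 1 to 3. Each Luxi animal was above the 13.1 to 46.4 of Shandong black cattle (log2 fold change 3.33, limma adjusted p = 0.118, not called). In MYH7 and TPM3 the breeds overlapped, and TPM3 was higher in Luxi animal 1 (906) than in any Shandong black animal. In the Luxi cattle replicate 1 the slow sum was thus below the Shandong black range while the fast sum was within it. In the same animal ATP2A2 was higher than in any other, PLN lay within the Shandong black range, and ATP2A1 and SLN lay above it. The part of the fibre type markers in the differences of the calcium genes was not tested.

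**Figure D4:**
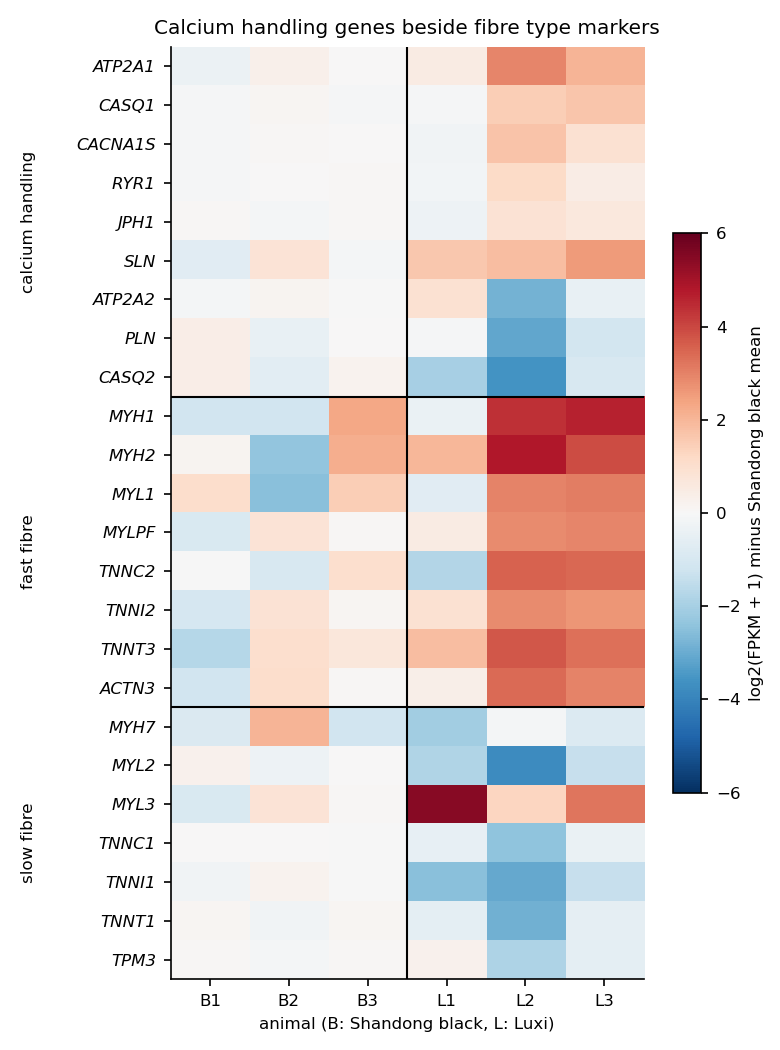
Difference of log2(FPKM + 1) from the Shandong black mean (colour, red higher and blue lower) in each animal (columns, B for Shandong black and L for Luxi) for the 9 calcium handling genes tested and the markers of fast and slow fibres (rows). The Luxi cattle replicates 2 and 3 are red in ATP2A1, CASQ1 and all 8 fast fibre markers, while the Luxi cattle replicate 1 is pale in ATP2A1 and CASQ1.

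Markers of other cells in the sample were summed in the same way. The heart also uses ATP2A2, PLN and CASQ2, and its myosin MYH6 was at most 0.00169 FPKM. The summed FPKM over 5 smooth muscle and mural cell markers was 90.4 to 109 in Shandong black cattle and 303, 54.9 and 126 in Luxi animals 1 to 3. Among the Luxi animals ATP2A2 was highest in animal 1, then in animal 3, then in animal 2. The sums for smooth muscle and mural cells, endothelium, Schwann cells, and blood and immune cells had this order too. Those for fibroblasts and fat cells did not. Among the Shandong black animals only the sum for endothelium had the order of ATP2A2. These orders of 3 animals were not tested. The 5 fat cell markers were each lower in all Luxi animals than in all Shandong black animals, against 9.10% of all genes. Their summed FPKM was 109 to 173 in Shandong black cattle and 2.04 to 17.3 in Luxi cattle. The sum over 3 fibroblast markers was 81.3 to 125 in Shandong black cattle and 167 to 265 in Luxi cattle, that over 3 Schwann cell markers was 47.7 to 120 and 7.58 to 27.3, and that over 3 blood and immune markers was at most 2.24 in any animal. The part of these cells in the differences of the calcium genes was not tested.

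ATP2A1, CACNA1S and RYR1 each carry an exon whose splicing is known to change as muscle matures, and its use was read from the transcripts of each animal. Skipping of exon 22 of ATP2A1 gives the neonatal form of the pump. This exon, of 45 bases on chromosome 25 from 25929946 to 25929990, was included in all but a trace of the FPKM of ATP2A1 in every animal, and the FPKM of the form that skips it was at most 0.000151. Exon 29 of CACNA1S, of 57 bases on chromosome 16 from 79615020 to 79615076, is skipped in the embryonic form of the channel. It was included in 90.1, 94.2 and 95.1% of the FPKM of CACNA1S in Shandong black animals and in 97.6, 98.6 and 96.5% in Luxi animals, so the Luxi animals lay above the Shandong black animals by a small margin. Exon 70 of RYR1, of 15 bases on chromosome 18 from 48310432 to 48310446, was included in 0.232 to 5.43% of the FPKM of RYR1, with no separation of the breeds. Unlike the exons of ATP2A1 and CACNA1S, it was thus mostly skipped in every animal. Whether this is the mature form cannot be read from these data. These shares are the division of reads between transcripts as estimated by StringTie and were not tested.

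The genes whose levels over the 6 animals were most like those of the pumps were found by the root mean square difference of log2(FPKM + 1), each gene taken relative to its own mean, over all genes tested. For ATP2A1 these were ATP2B2, ASB16 and SLC37A4, with differences of 0.14, 0.21 and 0.24, where ATP2A1 itself had a spread of 1.17. ATP2B2, a calcium pump of the surface membrane, had an FPKM of 0.466, 1.12 and 1.07 in Shandong black animals and 1.56, 10.5 and 6.17 in Luxi animals, the same order of the Luxi animals as ATP2A1. For ATP2A2 they were MYH7B, GPAM and SLC16A7, with differences of 0.28, 0.48 and 0.49, where ATP2A2 had a spread of 1.17. MYH7B, a myosin heavy chain of slow fibres, had an FPKM of 10.5, 13.0 and 15.3 in Shandong black animals and 22.3, 1.91 and 8.42 in Luxi animals. None of these 6 genes was called between the breeds by limma (2.55% of all genes were). The 3 genes nearest to ATP2A1 had an unadjusted limma p under 0.05, as had ATP2A1 itself, against 21.9% of all genes. The 6 genes were chosen from all genes for this likeness, so their p-values follow those of the pumps and add no separate result. ATP2B2 was tested only because its mean FPKM reached 1 in Luxi cattle (0.887 in Shandong black cattle).

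Of 44 further genes of muscle calcium handling, listed by their role, 39 were found and 34 could be tested. This list was written with earlier results of these data known, which limits the counts below. Of the 34 genes tested, limma called 1 gene, MRLN, which was higher in Luxi cattle, against 1.56% of all genes called higher, and none was called lower, against 0.993%. At an unadjusted limma p under 0.05, 10 of the 34 differed, against 21.9% of all genes. In 10 of the 34 all Luxi animals lay above all Shandong black animals, against 20.0% of all genes, and in none did they lie below, against 9.10%. The median log2 fold change of the 34 genes was 0.53, and 0.13 over all genes tested. Without the Luxi cattle replicate 1, 13 of the 34 were called, all higher in Luxi cattle, against 4.80% of all genes called higher. None was called without the Luxi cattle replicate 2 or 3 or the Shandong black cattle replicate 1 or 3.

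MRLN encodes myoregulin, a short membrane protein of skeletal muscle that inhibits the SERCA pumps as SLN and PLN do, and lies on the minus strand of chromosome 28 from 15415504 to 15432432. Its FPKM was 1.82, 3.83 and 2.67 in Shandong black animals and 12.5, 11.4 and 24.0 in Luxi animals. Each Luxi animal, replicate 1 included, was well above each Shandong black animal, and the means were 5.76-fold apart. MRLN rose by a log2 fold change of 2.13 with a standard error of 0.32 (limma adjusted p = 0.0274). Leaving out 1 animal at a time gave values from 1.82 to 2.33, and the call was lost without Shandong black animal 1 or 3 or Luxi animal 2 or 3 (limma adjusted p of 0.114, 0.128, 0.0590 and 0.0518). The other gene of this role that was tested, CALR, a calcium-binding protein of the reticulum, stood at -0.23 on the log2 scale (limma adjusted p = 0.612).

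Among genes of release and of the triad, the junction of T-tubule and reticulum, 15 were tested and 13 had a higher mean log2 level in Luxi cattle, of which none was called. JPH2, the second junctophilin, had an FPKM of 12.1, 15.6 and 20.5 in Shandong black animals and 29.4, 75.8 and 53.0 in Luxi animals, with a log2 fold change of 1.59 and no overlap of the breeds (limma adjusted p = 0.0729). TMEM38A, a potassium channel that balances the charge of released calcium, had 11.3, 20.3 and 21.8 in Shandong black animals and 31.0, 53.4 and 57.2 in Luxi animals, at 1.36 on the log2 scale (limma adjusted p = 0.0858). The breeds did not overlap in TMEM38A either, nor in DHRS7C and SRL, which were named after their values were seen. With the Luxi cattle replicate 1 left out, 8 of the 15 genes were called, all higher in Luxi cattle, against 4.80% of all genes called higher. JPH2 at 1.95 and TMEM38A at 1.63 were among them (limma adjusted p of 0.0204 and 0.0344). Without the Luxi cattle replicate 2 instead, JPH2 and TMEM38A were not called (limma adjusted p of 0.144 and 0.178). S100A1 and STAC3, also named after their values were seen, were the genes of this role with a lower mean log2 level in Luxi cattle. S100A1, a calcium-binding protein that modulates RYR1, had an FPKM of 288, 155 and 224 in Shandong black animals and 101, 51.5 and 199 in Luxi animals (log2 fold change -1.08, limma adjusted p = 0.271).

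TRDN, the triadin gene that ties calsequestrin to the release channel, was listed at 0.0180 to 0.0744 FPKM and was too low to be tested. Assembled transcripts on the same strand of its locus, on chromosome 9 from 27701102 to 27785368, had less than 50% of their bases on its listed exons and entered no gene. They carried an FPKM of 47.5, 29.1 and 45.5 in Shandong black animals and 87.7, 30.6 and 48.0 in Luxi animals, so the listed value does not give the level of triadin transcript. No such transcripts were left out at the loci of 8 of the 10 genes of the group, and at CASQ2 and JPH1 they carried at most 9.98 and 11.4 FPKM.

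In the other roles no gene was called with all 6 animals. When the Luxi cattle replicate 1 was left out, STIM1, ORAI1, BIN1 and CAV3 were called, against 4.80% of all genes called higher. They stood at 1.45, 1.38, 1.13 and 1.16 on the log2 scale (limma adjusted p of 0.0193, 0.0276, 0.0342 and 0.0390). Without the Luxi cattle replicate 2 instead, none of them was called (limma adjusted p of 0.186, 0.281, 0.702 and 0.456). Of the genes of store-operated entry, STIM1, the calcium sensor of the reticulum, had an FPKM of 7.99, 11.7 and 9.91 in Shandong black animals and 14.8, 30.5 and 26.4 in Luxi animals, or 1.15 on the log2 scale (limma adjusted p = 0.0940). ORAI1, the surface channel that STIM1 opens, had 1.73, 3.30 and 2.98 in Shandong black animals and 3.37, 7.86 and 8.94 in Luxi animals, or 1.02 on the log2 scale (limma adjusted p = 0.146). In both genes the breeds did not overlap, although the Luxi cattle replicate 1 was only slightly above the highest Shandong black animal in ORAI1. Of the pumps that expel calcium through the surface membrane, ATP2B1 had 12.2 to 14.2 in Shandong black animals and 24.0 to 27.3 in Luxi animals (log2 fold change 0.86, limma adjusted p = 0.0602), and ATP2B4 had 3.33 to 4.49 and 6.24 to 6.35 (log2 fold change 0.54, limma adjusted p = 0.127). Both were thus higher in each Luxi animal, with little spread among the Luxi animals.

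MCU, the pore through which mitochondria take up calcium, varied widely among the Shandong black animals, with an FPKM of 80.6, 46.9 and 7.16 in Shandong black animals and 16.4, 10.8 and 21.1 in Luxi animals (log2 fold change -0.94, limma adjusted p = 0.515). SMDT1, a small subunit of the same channel, had 19.5 to 22.4 and 24.7 to 46.4 (log2 fold change 0.54, limma adjusted p = 0.303). Of the genes of the T-tubule membrane, BIN1, which shapes the tubules, had an FPKM of 175 to 195 in Shandong black animals and 143, 420.4 and 376 in Luxi animals (log2 fold change 0.64, limma adjusted p = 0.433). CAV3, the caveolin of muscle, had 19.4 to 22.4 in Shandong black animals and 19.2, 38.5 and 59.5 in Luxi animals (log2 fold change 0.73, limma adjusted p = 0.316). In BIN1 and CAV3, as in RYR1, CACNA1S and JPH1, the Luxi cattle replicate 1 lay below the Shandong black animals and the other Luxi animals above them.

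**Figure D5:**
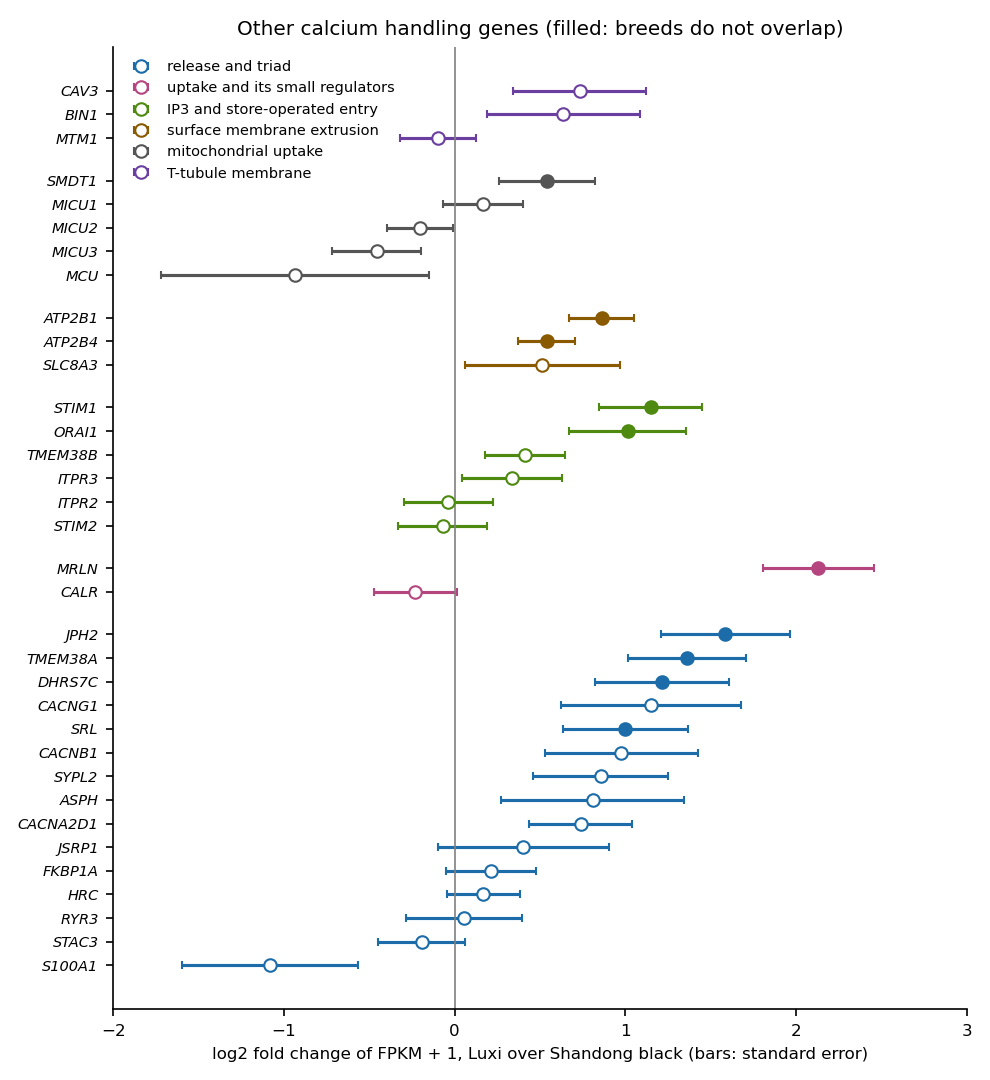
Log2 fold change of FPKM + 1 between the breeds (horizontal axis, Luxi over Shandong black, bars are the standard error) for 34 further calcium handling genes, coloured by role. Filled points mark the 10 genes in which the animals of the breeds do not overlap, all of them higher in Luxi cattle, and MRLN, at 2.13, was called by limma.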

How the data were processed

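RNA-Seq of longissimus dorsi muscle was performed by the authors on 3 animals per breed. The authors aligned the reads with HISAT to ARS-UCD1.2 and assembled each library with StringTie (1.3.3b per the file headers), guided by the NCBI annotation and read strand. The deposited values of each transcript are its coverage, FPKM and TPM, and replicates were not pooled. A transcript absent from a file was counted as 0.

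Gene FPKM was the sum over reference transcripts, matched by gene name, and those assembled ones that lay on the same strand and shared 50% or more of their length with its exons (bedtools). Exons were taken from the reference transcripts of all 6 files. Breeds were compared with limma 3.58.1 in R 4.3.3 (lmFit, eBayes with trend, Benjamini-Hochberg adjustment) on log2(FPKM + 1), and ratios by exact permutation tests in scipy 1.17.1. No covariate was used, and Cuffdiff, which needs alignments, was not run. The procedure was tested on simulated data. The deposited values are no read counts, so no count test was run and the number of animals limits the precision. Chromosome names follow the gene names in the ARS-UCD2.0 table. Coordinates are those of the files.

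The 10 genes and the lists of further genes and markers were chosen with earlier results of these data known. From the list of further genes, called genes and the 2 genes of largest log2 fold change per role are named, with the 3 genes nearest to ATP2A1 and to ATP2A2. PVALB was too low for the latter. RYR2, STRIT1, SMIM6, ITPR1, DYSF, MYH4, TNNI3, NPPA, NPPB and VWF were not analysed here. The alternatives were another pseudocount, other filters, TPM, 2 scalings, eBayes without trend, a replicate block, other sums of transcripts, no fold change threshold and leaving out each animal.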

Additional observations from a re-analysis of the deposited data

How the results depend on the processing

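No calcium handling gene of the group was called under any alternative except without the Luxi cattle replicate 1, where 4 were called (0 to 4 with each animal left out in turn). Of the 153 log2 fold changes of the 9 genes under 17 alternatives, 1 changed sign, that of ATP2A2 (-1.64 to 0.23 with each animal left out, above 0 without the Luxi cattle replicate 2). The number of all genes called, 249, was 65 without a filter, 139 with a mean FPKM of at least 5, 162 with reference transcripts only, 134 with the replicate block, and 3 to 591 with each animal left out in turn (3 without the Shandong black cattle replicate 3, 591 without the Luxi cattle replicate 1). Of these 249 genes 61.0% were higher in Luxi cattle, and 43.9% of 264 with size factors and 43.3% of 289 with quantile normalization. Of the further calcium handling genes, 0 were called without a filter, 2 with TPM or with reference transcripts only (MRLN and JPH2), 2 with at least 10% of bases on exons (MRLN and TRDN), and 0 to 13 with each animal left out. Changes of sign were also found in SLC16A7 (-0.33 with a pseudocount of 0.1, -0.12 with TPM, and -0.67 to 1.08 with each animal left out), in STAC3 (-0.35 to 0.0062) and in MYH7B (-1.40 to 0.11). The cause was not tested. The 4 ratios kept their direction throughout. The exact paired permutation test, which cannot go below p = 0.25 with 3 pairs, gave p = 0.5 for ATP2A1 to ATP2A2 and 0.25 for the other ratios. Same-numbered animals share only a number: their deviations from the breed means correlated at 0.090, 0.090 and 0.082 across genes, although each animal correlated best with its own number. With the replicate block none of the 9 genes was called, and MRLN still was (limma adjusted p = 0.0445). TNNI1 was not called with this block (limma adjusted p = 0.0679), nor without a filter (0.107) or with at least 90% of bases on exons (0.166).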
